A study of Equus caballus with 12 samples.

Results

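The 31 genes described here were read at similar levels in the lung and the liver of the horse and at no more than a small fraction of those levels in the heart. They were chosen from all 31217 genes listed by their medians over the 4 libraries of each tissue. Both the lung and the liver median had to reach 200 normalised read counts, the medians had to lie within 3-fold of each other, and the lower of them had to reach 20 times the heart median + 1. A normalised read count is the number of reads of a gene divided by the size factor of the library, a median-of-ratios factor computed over the 8968 genes with at least 10 reads in all 12 libraries. Since these medians chose the genes, the low heart level and the balance of lung and liver are descriptions, and no test is given for them.

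RNA-seq was performed on left ventricular heart muscle (H), on lung tissue from the right caudal lobe (L) and on liver tissue from the right lobe (LR) of 4 young, healthy cold-blooded stallions, with no treatment. Each tissue had 4 libraries, 1 from each animal, and replicate 1 of each tissue came from horse 1, and so on. All 4 animals were of the same sex and type, so the values stand for such horses only. The design compares gene expression between the tissues in 3 contrasts (LvsH, LvsLR and HvsLR), and because each animal gave all 3 tissues it also allows a test of differences between horses.

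The lung and the liver are organs of epithelium that arise from the foregut endoderm, whereas heart muscle arises from the mesoderm. Both carry large resident populations of macrophages, the alveolar macrophages of the airspaces and the Kupffer cells of the liver sinusoids, and both are rich in vessels. Ventricular muscle is built mainly of cardiomyocytes by volume, and mRNAs of contraction and of mitochondrial energy supply are abundant in it. Genes of epithelium or of resident immune cells can therefore be shared by lung and liver and be scarce in heart. Which of these classes the 31 genes belong to was not examined here, because the files list Ensembl identifiers with no gene names and 0 of them matched the RefSeq table of the horse. The study gives symbols for some of the identifiers, and these were not used here. Without gene names, the labelled tissues were not checked against their marker genes, and no gene sequence is shown. In bulk tissue, fewer cells of a type and less RNA per cell cannot be told apart.

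Gene counts per library lay between 4345694 (liver replicate 4) and 23474239 (heart replicate 1), and size factors from 0.273 to 3.31. In the shallowest libraries 1 read was worth 3.66 (heart replicate 3) and 3.63 (liver replicate 4) normalised read counts, compared with 0.302 in lung replicate 3. Heart replicate 2 stood apart from the other heart libraries: the 30 most abundant genes with a liver median at least 100 times the lung median + 1 had a median of 3.10% of their liver level there, and 0.0464%, 0.262% and 0.104% in heart replicates 1, 3 and 4. Summaries that rest on the heart libraries are therefore given with and without heart replicate 2. Leaving it out lowers the heart level of most of the 31 genes by construction, since it was their highest heart library.

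Of the 4599 genes with lung and liver medians of at least 200, 3854 had medians within 3-fold of each other, and the lower of these medians was typically close to the heart level (median ratio to heart + 1, 0.920). The 31 genes were those at 20 or more on this ratio, and 54 were at 10 or more. A further 20 genes passed the level and the fold over heart but not the balance, 10 with lung and 10 with liver higher by more than 3-fold. The same rule turned to the other pairs of tissues found 47 genes shared by heart and lung and low in liver, and 11 genes shared by heart and liver and low in lung. Without heart replicate 2, the rule found 37 genes, which included all 31, as follows for most of them from the lower heart medians. ENSECAG00000017357 was lowest in heart replicate 2, so its heart median did not fall, and it still passed the rule.

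The genes at the edges of the rule differed little from their neighbours outside it. Just inside the fold over heart lay ENSECAG00000007258 and ENSECAG00000008426, both at a ratio of 20.4, and just outside lay ENSECAG00000002225 at 19.98 and ENSECAG00000024797 at 18.9. On the balance, the genes closest to the limit were ENSECAG00000039616 at 2.57 and ENSECAG00000013863 at 2.40, while ENSECAG00000016183 at 3.06 and ENSECAG00000031522 at 3.55 fell outside. On the level, ENSECAG00000014408 with a lower median of 213 and ENSECAG00000021278 with 222 were inside, and ENSECAG00000013641 with 184 and ENSECAG00000027995 with 168 were outside.

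Summed over the 31 genes, the normalised read counts were 39294, 51267, 49605 and 41824 in lung replicates 1 to 4 and 37029, 30572, 37969.7 and 29722 in liver replicates 1 to 4. The corresponding sums in heart replicates 1 to 4 were 382, 1686, 531 and 414. The means were 45497 ± 5835 in lung, 33823 ± 4276 in liver and 753 ± 625 in heart (SD, n = 4 each), and the heart libraries did not reach the range of the other tissues. Leaving out heart replicate 2, the heart mean was 442 ± 78.1 (SD, n = 3). As a share of all gene counts, the genes took 0.683% ± 0.0716 in lung, 0.189% ± 0.00874 in liver and 0.00369% ± 0.00323 in heart (SD, n = 4 each), or 0.00207% ± 0.000248 in heart without replicate 2 (SD, n = 3). Lung and liver shares differ more than lung and liver normalised counts because library totals and size factors scale these tissues differently.

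ENSECAG00000039616 was the largest part of the mean sum in lung (13168 of 45497) and in liver (4683 of 33823), but not in heart. This gene was read at 10504, 19345, 10439 and 12383 normalised counts in lung replicates 1 to 4. Its liver libraries gave 5946, 4350.1, 3884 and 4552, and its heart libraries 13.4, 140.4, 47.6 and 20.1. Every lung library lay above every liver library, and the highest heart library, replicate 2, was far below both. Because a longer gene collects more reads and gene lengths were not used here, the order of genes is an order of reads and not of transcript number.

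ENSECAG00000023562 came next by the geometric mean of its lung and liver medians. Its normalised counts were 3481, 5243, 9123 and 7112 in lung replicates 1 to 4 and 1961, 3373, 5182 and 2638 in liver replicates 1 to 4. The heart libraries gave 20.1, 321, 29.3 and 19.1. Lung and liver libraries overlapped, both were lowest in horse 1 and highest in horse 3, and heart replicate 2 held most of the heart signal.

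ENSECAG00000012668 was close to even between the organs, at 3193, 3415, 2516 and 2339 in lung replicates 1 to 4 and 3611, 2219, 2874 and 2939 in liver replicates 1 to 4. It was also the member with the highest heart median, with 111, 155, 25.6 and 76.5 in heart replicates 1 to 4. Heart replicate 2 was again the highest, but replicates 1 and 4 also held much of the heart signal.

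ENSECAG00000024630 had even lung values of 3191, 3169.9, 2415 and 2187 in replicates 1 to 4. Its liver values were 1809, 1725 and 1201 in replicates 1 to 3 and 69 in replicate 4, where 19 reads were counted. The highest liver library was 26.2 times the lowest, and liver replicate 4 still lay above the highest heart library, at 44.8.

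ENSECAG00000008834 showed the opposite order of organs. The lung libraries gave 1371, 1355, 1249.9 and 912, and the liver libraries 3752, 949.9, 8539 and 1642, so the liver varied widely between horses and overlapped with the lung in replicate 2. In the heart it was read at 13.4, 38.8, 32.9 and 10.5. ENSECAG00000010728, the last of the 6 most read members, gave 1963, 814, 1187 and 1098 in lung, 2169, 2256, 1615 and 1471 in liver and 36, 104.5, 51.2 and 41.1 in heart, and its lung and liver libraries overlapped. The other 25 members had medians between 213 and 1920 in lung and between 238 and 1637 in liver.

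**Figure D1:**
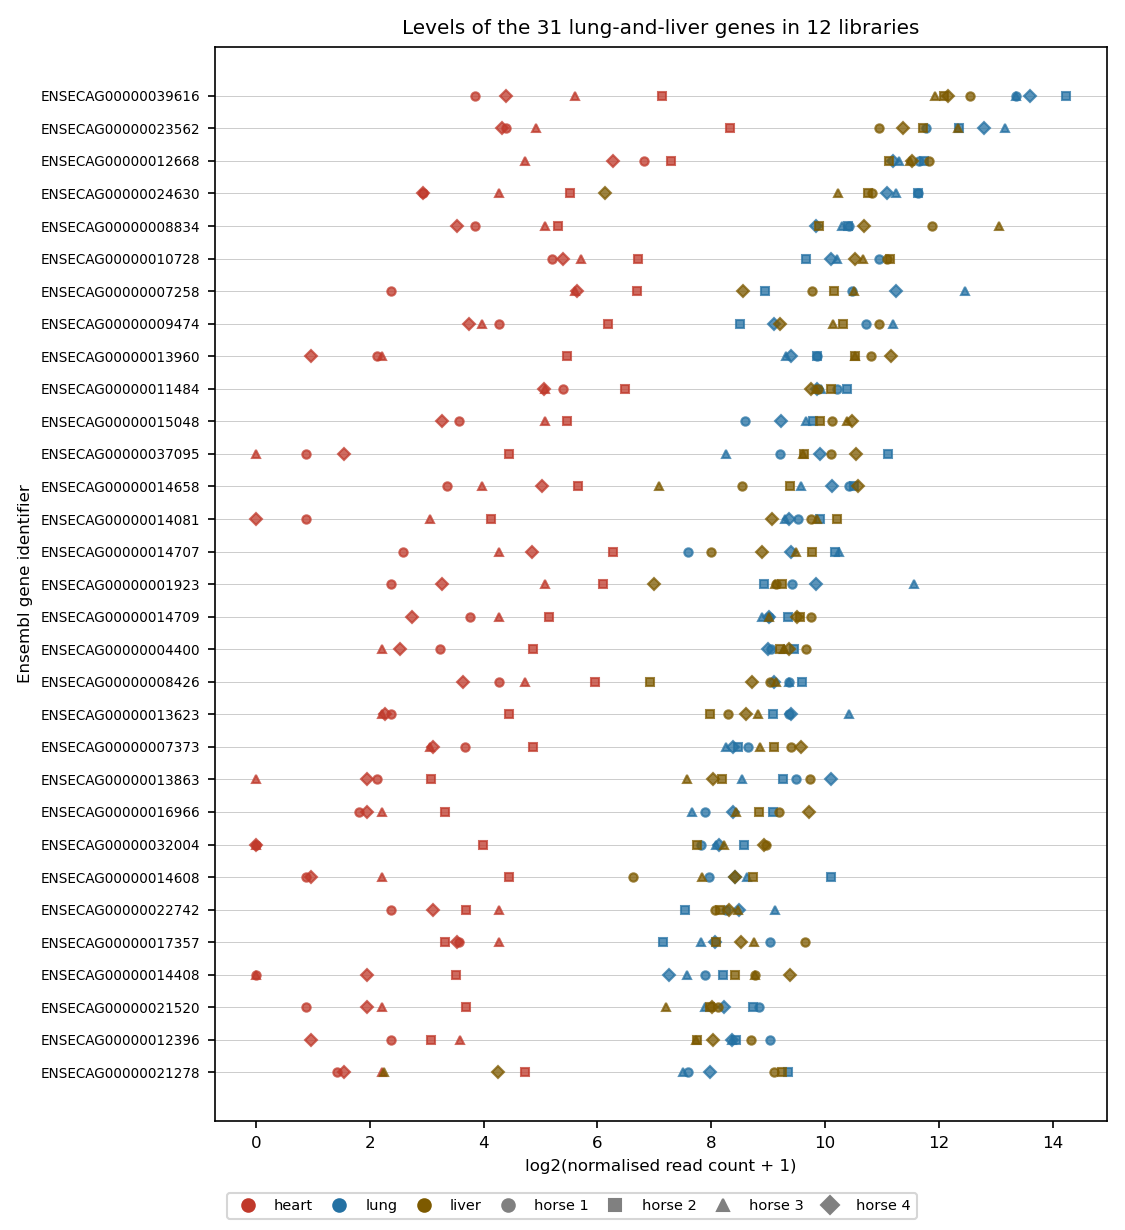
Normalised read counts of the 31 genes, on a log2 scale after adding 1, in all 12 libraries. Each row is a gene, the colour gives the tissue and the marker shape the horse. In 30 of 31 rows every heart point lies left of every lung and liver point, and in 28 rows the rightmost heart point is horse 2.

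In edgeR's model of all 15436 genes tested, the 31 genes had fitted log2 fold changes of 4.27 to 7.74 in LvsH (median 5.50, SE 0.29 to 1.43) and of -7.46 to -3.79 in HvsLR (median -5.40, SE 0.29 to 1.44). The median over all genes tested was 0.03 in LvsH and 0.12 in HvsLR. Without heart replicate 2 the medians of the 31 genes were 6.45 and -6.40, with ENSECAG00000032004 then at no heart read, so that its fitted value depends on the prior count. All 31 passed the thresholds for DEGs (adjusted p < 0.05, fold change of 1 or more on the log2 scale in either direction) in LvsH with lung higher (24.5% of all genes tested) and in HvsLR with liver higher (22% of all genes tested). The rule chose the genes on these contrasts, so nothing is read from these counts, and LvsH and HvsLR share the heart libraries.

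Every heart library lay below every lung and every liver library in 30 of the 31 genes, as it did in 22.5% of the 4599 genes with lung and liver medians of at least 200. The exception was ENSECAG00000021278. Its lung values were 192, 648, 181 and 251 in replicates 1 to 4, and its liver values were 546, 607, 3.75 and 18.2, from 402, 637, 3 and 5 reads. The heart values were 1.67, 25.4, 3.66 and 1.91. Liver replicates 3 and 4 thus lay at the level of the heart libraries, and liver replicates 1 and 2 at the level of the highest lung library. The gene passed the rule because the median of 4 liver libraries with 2 high and 2 low values lies between them. Without heart replicate 2, an alternative chosen after seeing the data, the count of genes with every heart library lowest was 31 (26.1% of the 4599 genes). The gene gained, ENSECAG00000021278, was separated only by 3.75 in liver replicate 3 over 3.66 in heart replicate 3, values of very few reads.

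The genes with the largest distance from the heart had almost no heart reads. ENSECAG00000037095 had the largest ratio of the lower organ median to heart + 1, at 326. It had 1, 14, 0 and 2 reads in heart replicates 1 to 4, or 0.837, 20.9, 0 and 1.91 normalised counts. The lung values were 591, 2193, 307 and 959, and the liver values 1095, 793, 784 and 1486, and lung and liver libraries overlapped. ENSECAG00000032004 had 10 reads in heart replicate 2 (14.9 normalised counts) and none in the other heart libraries. It was read at 225, 382, 271 and 280.0 in lung and 499, 215, 298 and 483 in liver, a ratio of 275.

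ENSECAG00000013960 reached 3.35, 43.3, 3.66 and 0.956 in heart replicates 1 to 4 and a ratio of 178. All liver libraries, at 1798, 1473, 1476 and 2271, were above the lung libraries, at 925, 927, 634 and 675. ENSECAG00000014081, with a ratio of 138, gave 0.837, 16.4, 7.32 and 0 in heart, 738, 957, 628 and 662 in lung and 866, 1188, 928 and 538 in liver. It was 1 of 3 members that met all parts of the rule within each of the 4 horses, the others being ENSECAG00000016966 and ENSECAG00000037095. Of the whole table, these 3 genes alone met the rule in every horse, and 16 genes, 15 of them members, met it in horses 1, 3 and 4.

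The fold over heart differed between horses. Within horse 1, all 31 genes reached 20 times heart + 1 in both organs. Within horses 3 and 4, 25 and 26 genes did, and within horse 2 only 11 did. In each heart library the genes were set against their liver medians. The median over the genes was 0.846%, 4.62%, 1.25% and 0.775% of the liver level in heart replicates 1 to 4. With the heart level of each gene taken as its median over the heart libraries, the value was 1.29%, and 1.09% without heart replicate 2. Against their lung medians the values by library were 0.746%, 5.20%, 1.29% and 1.01%. Heart replicate 2 was the highest heart library for 28 of the 31 genes, compared with 29.8% of the 4599 genes, and the remaining 3, ENSECAG00000022742, ENSECAG00000017357 and ENSECAG00000012396, were highest in heart replicate 3. For 20 genes, more than 50% of the summed heart signal came from replicate 2 (median over all genes, 58.6%, range 18.4% to 100%). ENSECAG00000032004 and ENSECAG00000037095 had the largest shares in 1 heart library.

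The genes in heart replicate 2 were read against the trace of liver-restricted genes in the same library. The median trace was 3.10% of the liver level, with quartiles of 2.66% and 3.55%. Of the 31 genes, 7 were below the lower quartile, 5 were within the quartiles and 19 were above the upper quartile, of which 9 were above double the median trace. The range over the genes was 1.44% to 13.01%. The 30 genes with a lung median at least 100 times the liver median + 1, chosen in the same manner, had a median of 0.288% of their lung level in heart replicate 2 and of 0.128%, 0.420% and 0.284% in heart replicates 1, 3 and 4. Their upper quartiles were 8.27% in heart replicate 2 and 9.33%, 11.4% and 14.2% in heart replicates 1, 3 and 4, so some of these genes were well read in every heart library. The part of this library's liver trace in the heart level of the 31 genes was not tested.

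**Figure D2:**
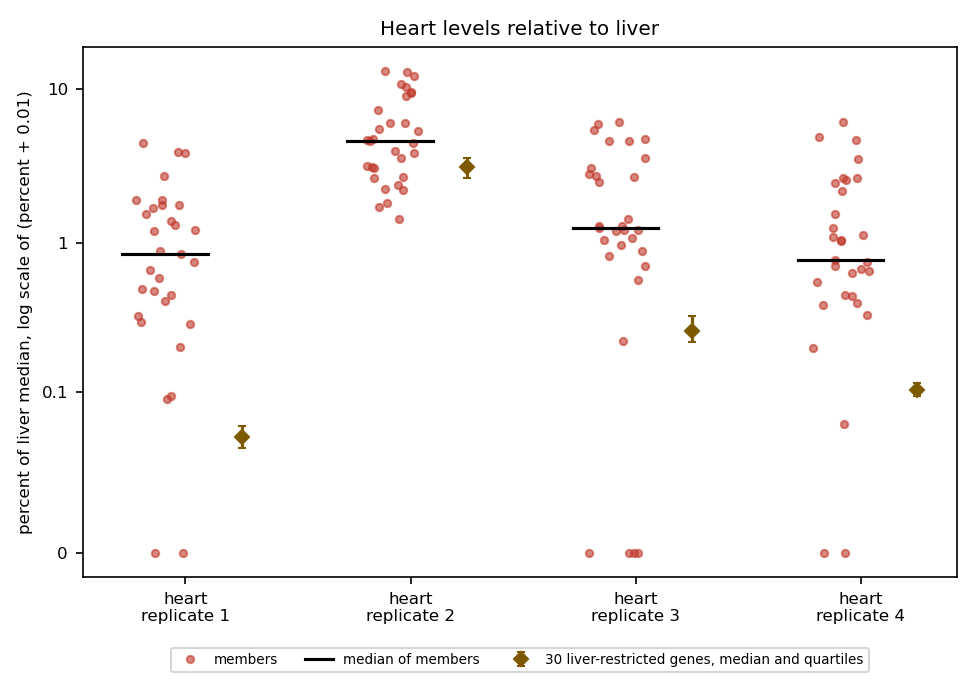
Level of the 31 genes in each heart library as a percentage of their median liver level, on a log scale after adding 0.01%. Points are genes, bars are their medians (0.846%, 4.62%, 1.25% and 0.775%), and diamonds with error bars are the median and quartiles of 30 liver-restricted genes. Heart replicate 2 is the highest library for both sets of genes.

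Over the genes as a set lung and liver medians were close to even, while single genes leaned to lung or to liver. The lung median was higher for 15 genes and the liver median for 16, and the median ratio of lung to liver was 0.982. The lung was higher in all 4 horses for 8 genes, the liver in all 4 for 7, and the direction differed between horses for 16. Lung and liver libraries did not overlap with lung higher for 3 genes, ENSECAG00000039616, ENSECAG00000024630 and ENSECAG00000013623 (24.4% of the 4599 genes), nor with liver higher for 4, ENSECAG00000014408, ENSECAG00000013960, ENSECAG00000007373 and ENSECAG00000015048 (32.6% of the 4599 genes). ENSECAG00000013623, ENSECAG00000007373 and ENSECAG00000015048 are named after their values were seen.

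In edgeR's model the log2 fold change in LvsLR ranged from -1.73 to 1.37 over the 31 genes, with a median of -0.04, against 0.26 over all genes tested. ENSECAG00000039616 and ENSECAG00000013623 passed the thresholds for DEGs with lung higher (31.1% of all genes tested), and ENSECAG00000008834 and ENSECAG00000014408 with liver higher (19.4% of all genes tested). The rule limits the difference between lung and liver, so the low counts follow from it. These calls treat the libraries as unpaired. With the horse as a block, 3 genes passed with lung higher (4886 of 15436 genes tested) and 4 with liver higher (2999 of 15436). None of the 31 genes passed with lung higher without lung replicate 3, liver replicate 2 or liver replicate 4 (edgeR, 1, 0 and 1 at an unadjusted p below 0.05). Over all genes tested, 4667 of 15600, 4826 of 15830 and 4555 of 15913 passed in these fits. ENSECAG00000014408 was read at 236, 294, 190.0 and 151 in lung and at 436, 342, 436 and 665 in liver, with 0, 10.5, 0 and 2.87 in heart. The direction between lung and liver depended on the scaling. With TMM-scaled sizes 15 genes had a higher lung median, whereas with library totals alone all 31 did. The median log2 ratio was -0.03 with median-of-ratios size factors, -0.17 with TMM-scaled sizes and 1.38 with library totals. The median over all genes in LvsLR moved by 1.55 with library totals. Both organs remained above the heart in all 31 genes under each scaling.

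Within single horses the balance was not held by the rule, which set it for the medians of all 31 genes. Counts within a horse could therefore only equal 31 or be lower, and no share over the 4599 genes is given for them. In horses 1 to 4, 30, 28, 25 and 24 of the 31 genes had lung and liver within 3-fold of each other. The median log2 difference of lung minus liver over the genes was -0.23, 0.27, 0.22 and -0.01 in horses 1 to 4, compared with -0.07, -0.10, -0.07 and -0.07 over the 4599 genes. The SD of this difference across the 4 horses had a median of 0.583 over the 31 genes (range 0.116 to 3.20) and of 0.265 over the 4599 genes. ENSECAG00000021278 and ENSECAG00000024630, with the low liver libraries given above, had the largest SD. ENSECAG00000011484 had the smallest, at 0.116, and its lung values of 1177, 1328, 978 and 926 were followed closely by liver values of 934, 1100.4, 910.4 and 857. ENSECAG00000012396 came next, at 0.19, with 524, 346, 329 and 329 in lung and 414, 214, 212 and 262 in liver, both highest in horse 1, and with 4.18, 7.47, 10.98 and 0.956 in heart.

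**Figure D3:**
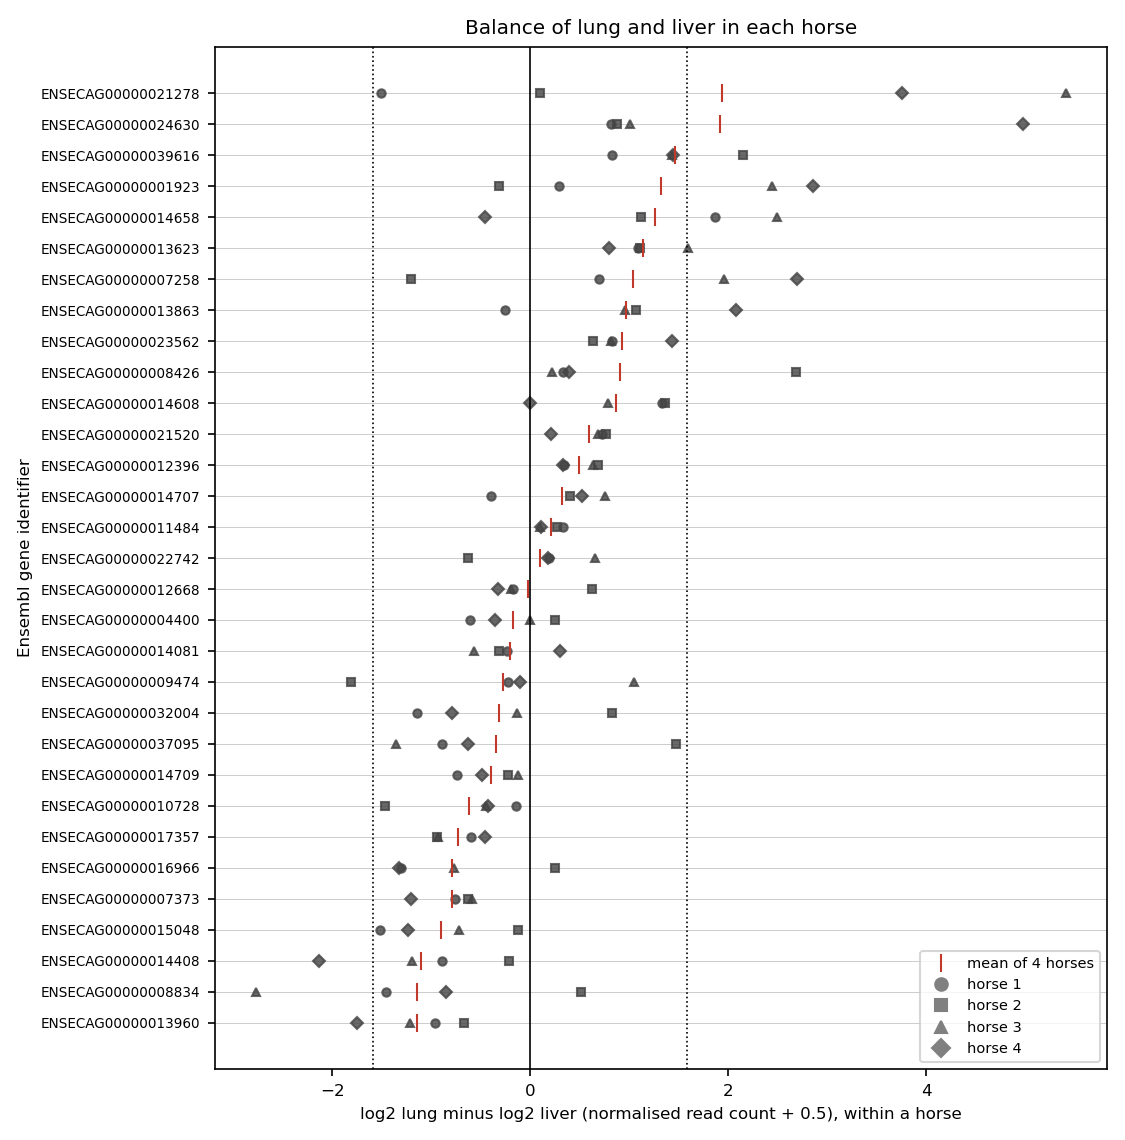
Difference between lung and liver within each horse, as log2 of the lung minus log2 of the liver normalised read count after adding 0.5, for the 31 genes in order of their mean. Marker shapes are horses and the red bar is the mean of 4 horses. The direction differs between horses for 16 genes, for which no share over other genes is given, and ENSECAG00000021278 has the widest spread.

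Levels of the 31 genes varied more between horses than those of most genes of similar or higher level. The SD of the log2 normalised read count over the 4 horses had a median of 0.449 in lung (range 0.164 to 1.47) and of 0.478 in liver (range 0.154 to 3.58). Over the 4599 genes the medians were 0.190 and 0.244. In lung 30 of the 31 genes lay above the median of the 4599 genes and 22 above its upper quartile of 0.287, and in liver 28 and 21 did (upper quartile 0.353). An SD above 1 was seen for 5 of the genes in lung (1.72% of the 4599 genes) and for 6 in liver (2.17%). Genes outside the set with the same level and fold over heart also varied widely. In lung, 266 such genes had a median SD of 0.565, above that of the 31 genes, and in liver 570 such genes had a median of 0.408, below it. No test of these differences is given, and the wide spread is not called particular to the genes that lung and liver shared.

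**Figure D4:**
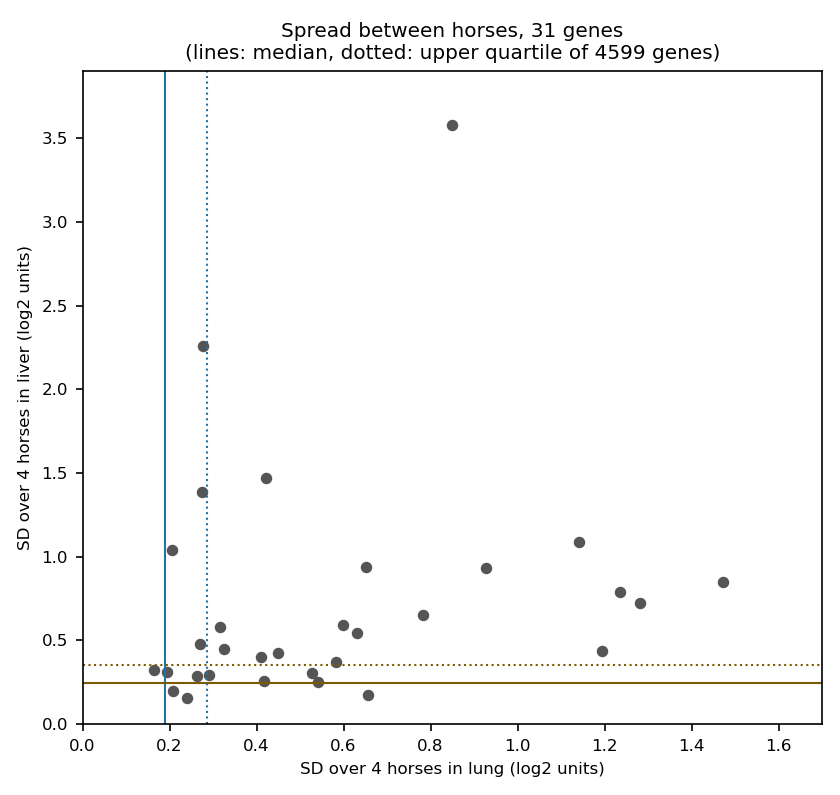
Spread between the 4 horses in lung and in liver for the 31 genes, as the SD of the log2 normalised read count. Solid lines mark the medians of the 4599 genes (0.190 in lung and 0.244 in liver) and dotted lines their upper quartiles (0.287 and 0.353). Most genes lie above both medians, and 1 gene reaches 3.58 in liver.

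No single horse carried the high values in both organs. Lung replicate 2 was the highest lung library for 16 of the 31 genes (21.8% of the 4599 genes), lung replicates 1 and 3 for 7 each (39.2% and 27.8%) and lung replicate 4 for 1 (11.3%). In the liver the highest library was replicate 1 for 11 genes, replicate 2 for 7, replicate 3 for 6 and replicate 4 for 7 (29.8%, 30.9%, 20.1% and 19.2%). Deviations from the tissue means in lung and in liver, correlated across the 31 genes within a horse, gave r = 0.38, 0.17, 0.48 and 0.09 in horses 1 to 4. Across the 4599 genes the values were 0.70, 0.51, 0.34 and 0.26. These correlations describe genes of the same animals and libraries, which are not independent.

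Differences between horses over the 3 tissues did not enter the rule, and they were tested in 1 model of tissue and horse fitted to all 15436 genes. With edgeR's quasi-likelihood test, 1 of the 31 genes passed an adjusted p of 0.05, compared with 1.06% of all genes tested, and 7 had an unadjusted p below 0.05, compared with 10.2%. Without heart replicate 2, 2 of the 31 genes passed (207 of 15906 genes tested). In that fit 13 had an unadjusted p below 0.05 (edgeR). No share over all genes is given for this count, so it is not read as a trait of the 31 genes. The gene that passed with all 12 libraries was ENSECAG00000014707 (edgeR, adjusted p = 0.0186). In horses 1 to 4 it was read at 192, 1153, 1205 and 678 in lung, at 253, 875, 714 and 472 in liver and at 5.02, 76.2, 18.3 and 27.7 in heart. Horse 1 was the lowest in each of the 3 tissues. The call was lost without lung replicate 1 (edgeR, adjusted p = 0.136) and, narrowly, without liver replicate 4 (edgeR, adjusted p = 0.0541). Without any other single library the adjusted p lay between 0.0141 and 0.0466 (edgeR). It was 0.0141 without heart replicate 2.

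The other genes with a small p did not pass. ENSECAG00000014608 (edgeR, adjusted p = 0.0611) was highest in horse 2 in lung and liver, with 247, 1093, 395 and 339.8 in lung and 97.8, 426, 229 and 342 in liver. Its heart values were 0.837, 20.9, 3.66 and 0.956, also highest in replicate 2. That library was the highest heart library for 28 of the 31 genes, so the heart adds little to this order. Without heart replicate 2 its adjusted p was 0.025. ENSECAG00000017357 (edgeR, adjusted p = 0.0926) was highest in horse 1 in both organs, with 526, 141, 226 and 268 in lung and 796, 272, 429.6 and 367 in liver. Its heart values, 10.9, 8.96, 18.3 and 10.5, did not follow that order, and its adjusted p without heart replicate 2 was 0.0533. In lung and liver libraries alone, both genes passed, with adjusted p-values of 0.0398 and 0.0148.

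ENSECAG00000011484 (edgeR, adjusted p = 0.394) was highest in horse 2 in lung and liver, with the values given above. Its heart values were 41.0, 88.1, 32.9 and 32.5, also highest in replicate 2, as for 28 of the 31 genes. ENSECAG00000013863 (edgeR, adjusted p = 0.398) gave 717, 612, 369.5 and 1102 in lung, 853, 292, 189.8 and 262 in liver and 3.35, 7.47, 0 and 2.87 in heart. Horse 3 was lowest in each of the tissues, while the highest lung library was horse 4 and the highest liver library horse 1. Without heart replicate 2 the adjusted p-values of these genes were 0.498 and 0.201. With 4 animals, differences between horses that are large in 1 organ and absent in another add to the residual spread of this test.

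**Figure D5:**
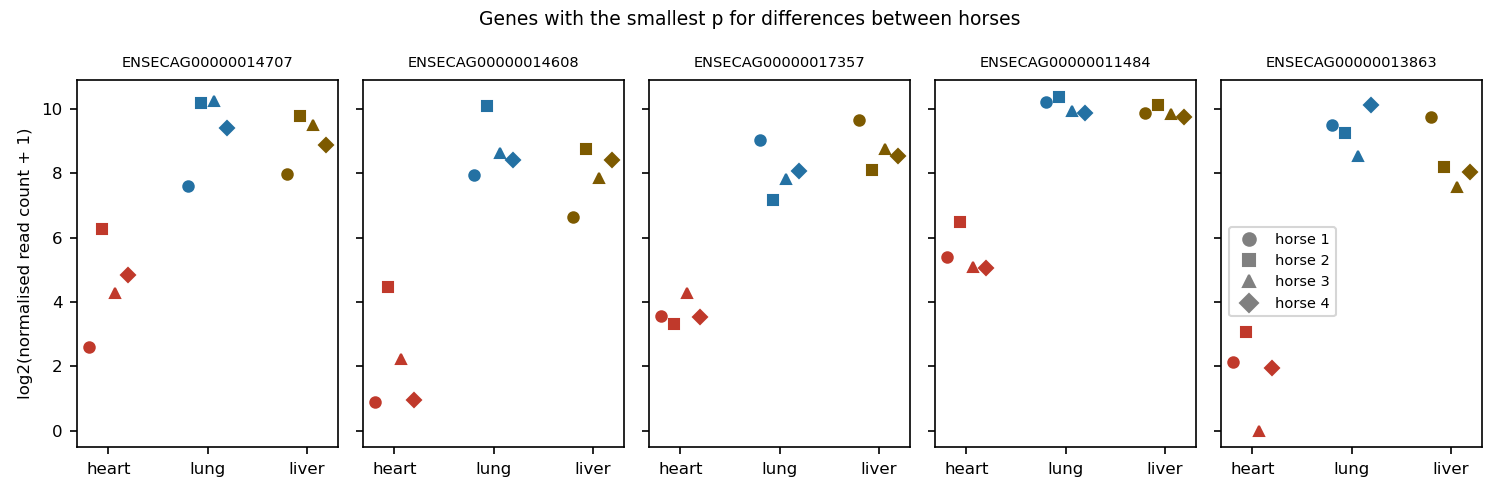
The 5 genes with the smallest p for differences between horses, 1 panel per gene, as log2 of the normalised read count + 1 in heart, lung and liver. Marker shapes are horses. In ENSECAG00000014707, the gene with an adjusted p of 0.0186, horse 1 is the lowest in all 3 tissues.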

How the data were processed

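The deposited files hold raw counts of reads per Ensembl gene, 1 file per library, which the authors made by filtering reads, aligning them to EquCab3.0 with TopHat2 and counting with HTSeq, per the labels and the methods of the study. Libraries came from the TruSeq RNA kit, which selects polyadenylated RNA, and were sequenced in 1 pool. The sources used here do not give the strand setting, so overlapping and antisense genes cannot be told apart, and HTSeq sets aside reads that map to several places, which lowers genes with near-identical copies. Summary rows of HTSeq, 26.8% to 37.9% of the listed reads, were left out.

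The 31 members and the rules for naming genes were chosen with earlier results of these data known. Named were the 6 members with the highest geometric mean of lung and liver, the 4 farthest from heart, the 2 at each end of the lung to liver ratio, the 5 with the smallest p between horses, the 2 most and 2 least variable in balance, the 2 with the largest share in 1 heart library, and the genes at the edges of the thresholds. Gene totals of 4345694 to 23474239 set the precision, and values of a few reads are uncertain by counting alone.

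Tests used edgeR 4.0.16 in R 4.3.3: a filter on low counts by tissue left 15436 genes, sizes were scaled by TMM, and robust quasi-likelihood models were fitted to all 12 libraries, with tissue for LvsH, LvsLR and HvsLR and with tissue and horse for differences between horses, with Benjamini-Hochberg adjustment over all genes tested. Log2 values used normalised counts + 0.5. DESeq2 1.42.0, other scalings and thresholds, no filter, the horse as a block and leaving out each library were tried. The scripts were tested on simulated data. Horse numbers pair the libraries because 1 number is 1 animal. Deviations from tissue means correlated at a mean r of 0.157 over 12 same-horse pairs (0.0867 to 0.372). Over 36 other pairs the mean r was -0.0521 (-0.249 to 0.128), so the ranges overlapped. Subtracting tissue means ties the mean of the other pairs to that of the same-horse pairs, so these means are not independent.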

Additional observations from a re-analysis of the deposited data

Results flagged for a closer look

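Among 93 groups of 4 libraries (31 genes in 3 tissues), 14 held a library whose gap to its nearest neighbour exceeded Dixon's 95% limit for its share of the range. Chance flags about 1 in 20 groups of independent, normally distributed values. That rate was not tested for these counts, of which the heart values rest on few reads and the genes share their libraries. No rate over all genes is given here, so the flags are not read as a trait of the 31 genes. Of the 14, 9 were heart groups in which replicate 2 was far above the other heart libraries, as the liver-restricted genes also were. These were ENSECAG00000023562 at 321 normalised read counts, ENSECAG00000011484 at 88.1, ENSECAG00000009474 at 71.7, ENSECAG00000013960 at 43.3, ENSECAG00000021278 at 25.4, ENSECAG00000037095, ENSECAG00000013623 and ENSECAG00000014608 at 20.9 each, and ENSECAG00000032004 at 14.9.

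In the lung, 3 groups held such a library. ENSECAG00000013623 reached 1361 in replicate 3, ENSECAG00000021278 reached 648 in replicate 2 and ENSECAG00000012396 reached 524 in replicate 1. In the liver, ENSECAG00000001923 stood apart through a low value, 127 in replicate 4, and ENSECAG00000013863 through a high value, 853 in replicate 1. Each of these 5 cases fell in a different library, and horse 1 held a case in both organs.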

How the results depend on the processing

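The number of genes that met the rule was 31. It was 58 with library totals in place of size factors (17 of the 31 among them), 54 at 10 times and 17 at 40 times the heart, 19 at a minimum level of 400, 3 when every horse had to meet the rule, and 16 when horses 1, 3 and 4 had to (an alternative chosen after seeing the data). Leaving out 1 library gave 27 to 37 genes. In LvsLR, 2 genes were DEGs with lung higher and 2 with liver higher (31.1% and 19.4% of all genes tested). With the horse as a replicate block, which accounts for the pairing of libraries, the counts were 3 and 4 (4886 and 2999 of 15436 genes tested). The block left the counts in LvsH and HvsLR at 31 (3879 and 3404 of 15436). Library totals gave 19 with lung higher (10788 of 15436 genes tested) and 0 with liver higher (1151 of 15436). For the latter, 0 of the 31 genes had an unadjusted p below 0.05 (edgeR). The calls thus moved over all genes and not in the 31 alone. DESeq2 size factors gave 4 with liver higher (3120 of 15436), and no filter on low counts gave 1 with lung higher (5388 of 23084). Leaving out 1 library gave 0 to 2 with lung higher and 1 to 4 with liver higher, and 4555 to 5025 and 2965 to 3419 over all genes tested. The count of 0 arose without lung replicate 3, liver replicate 2 or liver replicate 4 (edgeR, 1, 0 and 1 at an unadjusted p below 0.05). Differences between horses passed for 1 gene (163 of 15436 genes tested), and for 3 in lung and liver libraries alone (252 of 15015). They passed for 2 with no filter (205 of 23084) and for 3 with the likelihood ratio test of DESeq2 (509 of 23084). With 1 library left out the count was 0 to 2, and 82 to 207 over all genes tested. The 0 arose without lung replicate 1 (edgeR, 7 at an unadjusted p below 0.05). The adjusted p of ENSECAG00000014707 ranged from 5.5e-06 with DESeq2 to 0.136. The cause of these changes was not tested. Heart values rest on few reads, 145 to 1129 per library over all 31 genes, so folds over heart carry a wide counting error.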
